A study of Mus musculus with 19 samples.

Results

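The genes described here are 10 members of the Kruppel-like factor family (Klf2, Klf3, Klf4, Klf5, Klf6, Klf7, Klf9, Klf10, Klf13 and Klf16), of 21685 genes in the expression table and of 17 Klf genes in it. They were chosen by name with their levels in these libraries known, so differences between genotypes are given for them as values with standard errors and without p-values. The comparison of interest sets Klf2, Klf4 and Klf5, which belong to the naive pluripotency network, beside Klf6 and the other 6 genes.

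The cells were male C57BL/6 mouse embryonic stem cells grown in serum with LIF and sorted for SSEA-1 on magnetic beads before RNA extraction. Of the 4 genotypes, named by Trim71 and then Lin28a, there were WT-WT (Trim fl/fl, Lin28a fl/fl; 4 libraries), KO-WT (Trim-/-, Lin28a fl/fl; 4 libraries used), WT-KO (Trim fl/fl, Lin28a-/-; 5 libraries) and KO-KO (Trim-/-, Lin28a-/-; 5 libraries). "WT" therefore stands for a floxed allele that had not been deleted. Trim71 deletion was induced in conditional cells with 500 nM 4-hydroxytamoxifen for 2 days, and cells were grown for at least 7 more days; the labels do not say whether the other cells received the drug. TRIM71 is a ubiquitin ligase that also binds RNA, and LIN28A binds let-7 precursors and keeps them from being processed to mature microRNA. Lin28a-intact libraries come from clones 1 and E3, and Lin28a-null ones from clones 1-4 and C1. Lin28a loss and clone can thus not be told apart in any comparison of Lin28a states, while both Trim71 states share clones.

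Kruppel-like factors are transcription factors that bind GC-rich and CACCC-type DNA through a set of zinc fingers at the protein's C-terminal end. In mouse embryonic stem cells, Klf2, Klf4 and Klf5 overlap in function: each can support self-renewal, Klf4 is induced by LIF through STAT3, and Klf4 is one of the classical reprogramming factors. Other members recruit corepressors (Klf3 through CtBP, Klf9, Klf13 and Klf16 through Sin3) or respond early to growth factors and TGF-beta (Klf6, Klf10).

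The study's subject is let-7, so the sequences that could tie a Klf transcript to it are shown first. In the RefSeq table, 9 mature microRNA names of the let-7 and miR-98 family share the seed GAGGUAG (bases 2 to 8, in capitals), represented here by 1 of them.
let-7a-5p: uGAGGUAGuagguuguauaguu
The seed's match CTACCTC was looked for in the annotated 3' UTR of each gene. It was present in 2 of the 10 members, Klf9 and Klf13, once in each, beside 10.6% of the tested genes with an annotated 3' UTR (1324 of 12504). These stretches are shown with the match in capitals.
Klf9: aagaacactttCTACCTCtgtttcagatt
Klf13: ctccttgtggcCTACCTCcccatagagtc
The Klf9 stretch lies at chr19:23166919-23166947 on the plus strand and the Klf13 stretch at chr7:63889240-63889268 on the minus strand (GRCm38), both in the 3' UTR. The 3' UTRs of Klf2, Klf4, Klf5 and Klf6 (737, 982, 1707 and 3111 bases) did not hold these 7 letters. A match in this annotation is a description of the letters and not a measured site.

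Promoters are shown for Klf2, Klf4 and Klf6, since the levels of these 3 genes followed the genotypes in different ways. Stretches end at the RefSeq start, or earlier where the GENCODE transcript begins. Capitals mark the GC box (GGGCGG or CCGCCC) and the CACC box (CCACCC or GGGTGG), the kinds of DNA that Sp and Klf proteins bind.
Klf2, chr8:72318812-72319032, plus strand, GRCm38.p6: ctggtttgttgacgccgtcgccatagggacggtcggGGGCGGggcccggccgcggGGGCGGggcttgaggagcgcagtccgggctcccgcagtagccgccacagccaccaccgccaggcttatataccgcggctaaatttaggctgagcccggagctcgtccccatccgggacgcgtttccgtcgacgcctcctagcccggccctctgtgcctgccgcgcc
Klf4, chr4:55532476-55532725, minus strand, GRCm38.p6: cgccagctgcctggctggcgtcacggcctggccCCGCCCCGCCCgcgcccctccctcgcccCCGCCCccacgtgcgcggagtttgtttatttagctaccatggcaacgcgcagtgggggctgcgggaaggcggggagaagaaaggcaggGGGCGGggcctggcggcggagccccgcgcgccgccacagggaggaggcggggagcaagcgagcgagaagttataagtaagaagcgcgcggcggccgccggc
Klf6, chr13:5861239-5861481, plus strand, GRCm38.p6: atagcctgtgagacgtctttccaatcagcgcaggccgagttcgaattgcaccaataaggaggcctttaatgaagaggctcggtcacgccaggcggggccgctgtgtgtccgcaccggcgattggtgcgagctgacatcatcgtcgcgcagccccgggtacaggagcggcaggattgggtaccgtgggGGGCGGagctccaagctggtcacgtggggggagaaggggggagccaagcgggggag
The printed Klf2 stretch holds 2 GC boxes, that of Klf4 holds 4 (a pair of them overlapping by 1 base) and that of Klf6 holds 1; none of the 3 holds a CACC box. In the full 250 bases before the RefSeq start, 6 of the 7 members with an entry (that is, all members but Klf5, Klf10 and Klf16) held a GC box, beside 32.7% of 32851 promoters, and 4 of 7 held a CACC box, beside 28.1%. The letters CCAAT or ATTGG occurred in Klf6 (4 times), Klf9 and Klf13, beside 33.8% of promoters. A STAT-type half-site pair (TTCNNNGAA) occurred in Klf9 and in no other member with an entry, beside 7.02% of promoters. TATAAA, read on both strands like the other motifs, occurred in none of the 7, beside 12.4%.

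All 10 genes passed the filter on low values (at least log2 of 10 in 4 libraries), as did 69.1% of all genes. Depth is unknown and library sums of the unlogged values lie between 7297919 and 7677445. Trim71 itself was lower by 1.31 ± 0.12 (log2, SE) in KO-WT than in WT-WT and by 1.38 ± 0.103 in KO-KO than in WT-KO; Lin28a was lower by 1.65 ± 0.075 and 1.56 ± 0.075 in the Lin28a-null cells of each Trim71 state. Lin28a was also lower by 0.28 ± 0.081 in KO-WT than in WT-WT (limma adjusted p = 0.036), a call lost when any of several libraries was left out. The Trim71 mean was higher with Lin28a loss, at 10.65 in WT-KO beside 10.21 in WT-WT and 9.28 in KO-KO beside 8.89 in KO-WT. The label of embryonic stem cell was checked on 8 markers: 7 passed the filter, and Fut4, a fucosyltransferase gene, stayed at or below 3.41. Their summed level was 14.90 to 14.99 in WT-WT, 14.97 to 15.10 in KO-WT, 15.19 to 15.39 in WT-KO and 15.25 to 15.36 in KO-KO. Every Lin28a-null library lay above every Lin28a-intact one in this sum, whose highest member was Dppa5a. The 7 tested markers did not all rise. With Lin28a loss and Trim71 intact, 5 rose and 1 (Dppa4) fell, beside 20.3% and 22.0% of all genes. Without Trim71, 2 rose and 2 (Utf1 and Dppa4) fell, beside 20.8% and 22.0%. Some of these calls, those of Dppa4 among them, were lost when a library was left out. The part of the shift in the sum in the Klf3, Klf4 and Klf5 values was not tested. In bulk samples, fewer cells of a type and less RNA per cell cannot be told apart.

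Levels can be compared between genes only per length, here that of the longest annotated protein-coding transcript. The normalisation is not given, so the order assumes values that were not already scaled by length. On the unlogged scale per kilobase of transcript, Klf4 had the highest mean of the 10 in WT-WT cells (401), followed by Klf9 (287), Klf2 (227), Klf5 (210) and Klf10 (195). The WT-WT libraries of Klf2 (211 to 254) and Klf5 (201 to 223) overlapped, as did those of Klf5 and Klf10 (184 to 204). Klf16 followed at 126, then Klf6 (90.7 to 115) and Klf3 (96.4 to 102), which could not be ordered, Klf13 at 51.4 and Klf7, the lowest, at 12.5. In KO-KO cells Klf4 stood at 798 and Klf5 at 402 per kilobase, above Klf9 at 286, while Klf6 stood at 40.1.

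Klf4 (chr4:55527143-55532466, minus strand) was higher where either protein was missing and highest where both were. Its log2 level was 10.23, 10.18, 10.39 and 10.19 in WT-WT libraries 1 to 4, and 10.65, 10.61, 10.79 and 10.78 in KO-WT libraries 1 to 4. It was 10.83, 10.84, 11.00, 10.74 and 10.86 in WT-KO libraries and 11.29, 11.31, 11.25, 11.13 and 11.22 in KO-KO libraries. All KO-KO libraries lay above all others, and the KO-WT and WT-KO libraries overlapped, since KO-WT replicate 3 (10.79) exceeded WT-KO replicate 4 (10.74). KO-WT exceeded WT-WT by 0.46 ± 0.069 (higher in 3 of 3 same-day pairs), and KO-KO exceeded WT-KO by 0.38 ± 0.059 (5 of 5 pairs). WT-KO exceeded WT-WT by 0.61 ± 0.064, and KO-KO exceeded KO-WT by 0.53 ± 0.064, in 4 of 4 pairs each. Between WT-WT and KO-KO the difference was 0.99 ± 0.064, a 1.99-fold higher level.

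Klf5 (chr14:99298691-99315036, plus strand) had the same order of means with a smaller spread. It read 9.42, 9.54, 9.47 and 9.40 in WT-WT libraries, 9.76, 9.78, 9.85 and 9.92 in KO-WT, 10.10, 10.08, 10.04, 9.98 and 9.99 in WT-KO, and 10.37, 10.42, 10.36, 10.42 and 10.41 in KO-KO. No library of any genotype overlapped the next genotype in the order WT-WT, KO-WT, WT-KO, KO-KO. The difference with Trim71 loss was 0.37 ± 0.051 with Lin28a intact and 0.36 ± 0.044 with Lin28a null. The difference with Lin28a loss was 0.58 ± 0.048 with Trim71 intact and 0.57 ± 0.048 without it, and 0.94 ± 0.048 (1.92-fold) separated KO-KO from WT-WT. Within clones 1 and 1-4 the KO-WT to WT-WT difference was 0.53 (0.59 for Klf4) and within clones E3 and C1 it was 0.28 (0.39 for Klf4); clones 1 and 1-4 hold 1 KO-WT library, and within E3 and C1 alone neither gene passed the threshold. Neither passed when only WT-WT and KO-WT were fitted (0.47 for Klf4, 0.38 for Klf5). The Klf4 difference between KO-KO and WT-KO did not pass within clones E3 and C1 alone (0.37) or on the days with all 4 genotypes (0.33).

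Klf3 (chr5:64803388-64832901, plus strand), a CtBP-dependent repressor and not one of the naive factors, had the order of Klf5 at a smaller size. Its level was 8.98 to 9.06 in WT-WT (median 9.02), 9.16 to 9.25 in KO-WT, 9.29 to 9.43 in WT-KO and 9.44 to 9.60 in KO-KO. The 4 genotypes did not overlap. KO-KO exceeded WT-WT by 0.47 ± 0.048, of which 0.33 ± 0.048 lay between WT-WT and WT-KO. The differences with Trim71 loss were 0.18 ± 0.052 and 0.15 ± 0.045; only the former passed the threshold, a call that leaving out any of 8 libraries ended (0.16 to 0.21), and the latter passed when any of 3 libraries was left out (0.15 to 0.18). The former was also not called within either clone pair (0.19 and 0.18), and with the GC and length trend removed it was 0.29. Over all tested genes, 8.29% (1243) had genotype means rising in this order, and 0.167% (25 of 14988) did so without overlap of any neighbouring genotypes. Klf3 and Klf5 are among the 25 and Klf4 is not.

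**Figure D1:**
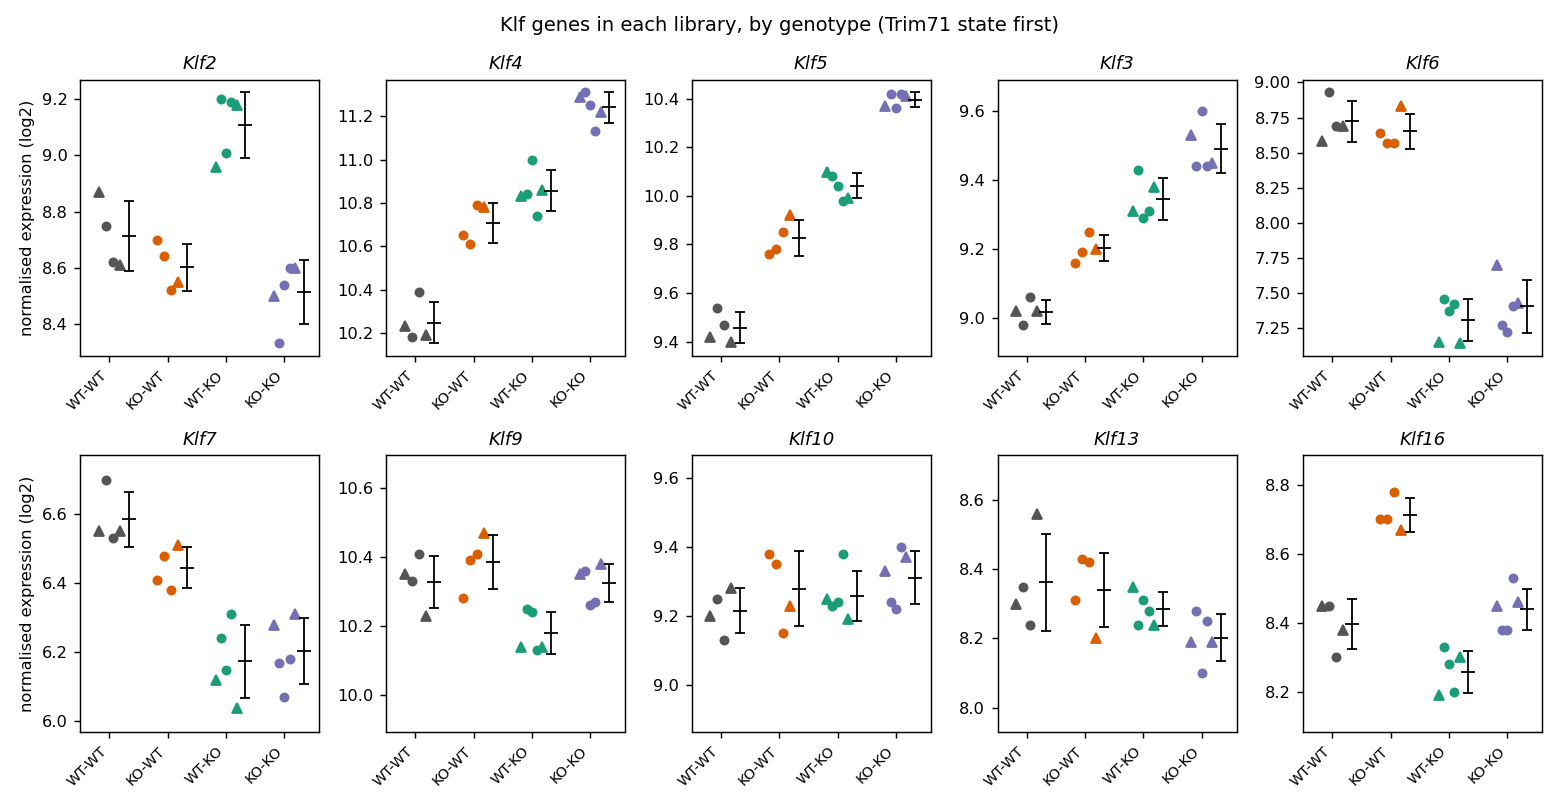
Log2 normalised expression (y axis; the scale differs between panels) of the 10 Klf genes in each of 18 libraries, by genotype (x axis). Circles are libraries of clones E3 and C1, triangles those of clones 1 and 1-4, and black bars mark the mean ± SD. Klf4, Klf5 and Klf3 are lowest in WT-WT and highest in KO-KO, Klf2 is highest in WT-KO, and every Lin28a-intact library of Klf6 (8.57 or more) lies above every Lin28a-null one (7.70 or less).

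Klf2 (chr8:72319033-72321656, plus strand) departed from Klf4 and Klf5 although it shares their role in self-renewal. It read 8.87, 8.75, 8.62 and 8.61 in WT-WT libraries, 8.70, 8.64, 8.52 and 8.55 in KO-WT, 8.96, 9.20, 9.01, 9.19 and 9.18 in WT-KO, and 8.50, 8.33, 8.54, 8.60 and 8.60 in KO-KO. Every WT-KO library lay above every other library, and the KO-KO libraries overlapped those of KO-WT. WT-KO exceeded WT-WT by 0.40 ± 0.079 (4 of 4 pairs). In Lin28a-null cells the level without Trim71 was lower by 0.60 ± 0.073 (1.51-fold; lower in 5 of 5 pairs, by 0.46 to 0.87). In Lin28a-intact cells the same difference was -0.11 ± 0.085, lower in 3 of 3 pairs, with overlapping groups. KO-KO lay 0.20 ± 0.079 below WT-WT; leaving out WT-WT replicate 1 brought this to -0.12, and leaving out any of 10 libraries ended the call.

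The difference between these 2 effects of Trim71 loss on Klf2 was -0.48 ± 0.112 (the interaction), with a range of -0.57 to -0.38 when each library was left out. It did not pass the threshold over all genes. The interaction of Klf4 was -0.07 ± 0.090 and that of Klf5 was -0.01 ± 0.068. None of the 10 genes was called for the interaction in limma (1 at an unadjusted p under 0.05), where 3 of 14988 genes (0.0200%) were. Without the day term Klf2 was called, and so were 673 genes in all. That fit gave the same difference and used 14 residual degrees of freedom, too many for values with day already removed. Klf2 transcripts are GC-rich (at the 97.5 percentile of tested genes), and across 14724 genes GC content correlated with the KO-WT to WT-WT difference (Spearman's rho 0.515) and with the interaction (-0.514), in values that share the same libraries. With the GC and length trend removed the Klf2 interaction was -0.33, the KO-KO to WT-KO difference was -0.56 and the KO-WT to WT-WT difference was -0.23; within clones 1 and 1-4 the interaction was -0.32 and within E3 and C1 it was -0.58.

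**Figure D2:**
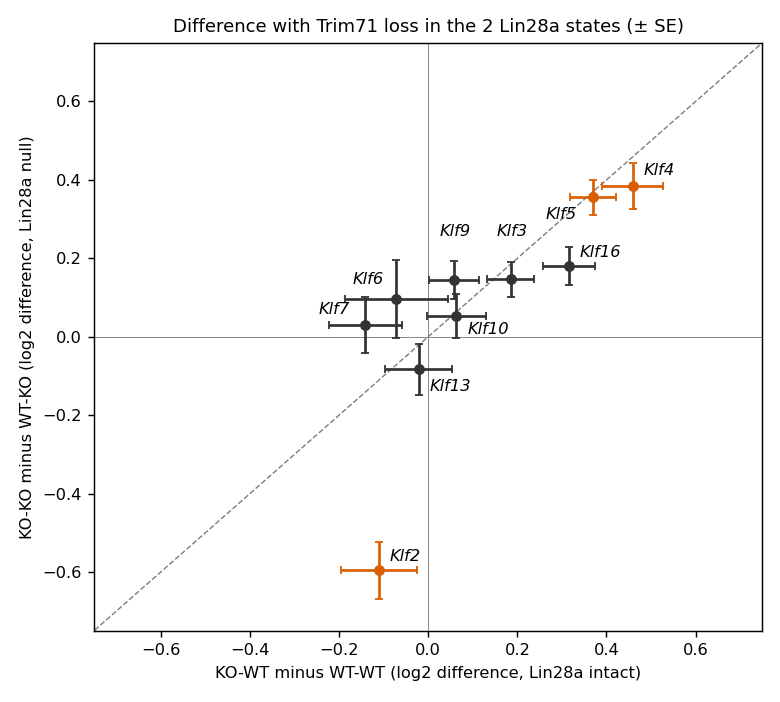
Log2 difference with Trim71 loss in Lin28a-intact cells (x axis, KO-WT minus WT-WT) and in Lin28a-null cells (y axis, KO-KO minus WT-KO) for the 10 Klf genes, with bars of ± 1 SE and the naive factors Klf2, Klf4 and Klf5 in orange. The dashed line marks equal differences; Klf4 (0.46 and 0.38) and Klf5 (0.37 and 0.36) lie near it, and Klf2 (-0.11 and -0.60) lies below it.

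Klf6 (chr13:5861482-5870394, plus strand), an injury- and TGF-beta-responsive factor, had the largest difference of the 10 genes, and it followed Lin28a state and clone. Its level was 8.58, 8.93, 8.69 and 8.69 in WT-WT, 8.64, 8.57, 8.57 and 8.83 in KO-WT, 7.15, 7.46, 7.37, 7.42 and 7.14 in WT-KO, and 7.70, 7.27, 7.22, 7.41 and 7.43 in KO-KO. The lowest Lin28a-intact library (8.57) lay above the highest Lin28a-null library (7.70). WT-KO was lower than WT-WT by 1.41 ± 0.107 (2.66-fold) and KO-KO was lower than KO-WT by 1.25 ± 0.107 (2.37-fold), in 0 of 4 pairs higher each. The difference with Trim71 loss was -0.07 ± 0.115 with Lin28a intact and 0.10 ± 0.099 with Lin28a null, in overlapping groups. These small differences changed direction with the clone pair. KO-KO minus WT-KO was 0.42 in clone 1-4 and -0.12 in clone C1, and KO-WT minus WT-WT was 0.22 in clone 1 and -0.23 in clone E3. The Lin28a differences were -1.49 and -1.29 in clones 1 and 1-4, and -1.40 and -1.29 in clones E3 and C1.

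Trophectoderm and fibroblast marker sums split by Lin28a state like Klf6. Primitive endoderm sums, whose highest member was Lama1, did not, though 4 of the 6 tested members did. The summed level of 10 trophectoderm markers, of which 8 passed the filter, was 12.23 to 12.63 in the Lin28a-intact libraries and 10.24 to 10.64 in the Lin28a-null ones. In KO-KO against KO-WT, 5 of the 8 fell and none rose, beside 22.0% and 20.8% of all genes. In WT-KO against WT-WT, 6 of the 8 fell (Krt7, Krt8, Krt18, Hand1, Gata3 and Tead4) and none rose, beside 22.0% and 20.3%. Krt8, a keratin, fell by 4.22 (limma adjusted p = 1.66e-11), Hand1 fell by 2.88 (adjusted p = 1.51e-10) and Tead4 fell by 0.20 (adjusted p = 0.0273), a call lost without WT-KO replicate 2 or 5 or WT-WT replicate 2, 3 or 4 (adjusted p 0.0513 to 0.109) and within either clone pair. Eomes and Tfap2c, both transcription factors of the lineage, differed by 0.13 each without being called, and Eomes was higher in KO-KO than in WT-WT by 0.26 (limma adjusted p = 0.0229; 0.0514 to 0.0925 without KO-KO replicate 1 or WT-WT replicate 1, 2 or 4, and 0.499 in clones E3 and C1 alone). The defining factors Cdx2 and Elf5 stayed at or below 3.13 and 1.02 in every library. The 8 primitive endoderm markers, 6 of them above the filter, summed to 10.50 to 10.80 in WT-WT and 10.89 to 11.26 in KO-WT. In WT-KO they summed to 9.91 to 10.30, and in KO-KO to 10.41 to 10.71, which overlapped WT-WT. Sox17 stayed at or below 3.59 and Foxa2 at or below 2.03. With Lin28a loss all 6 tested were called lower with Trim71 intact and 4 of 6 without it, beside 22.0% of all genes in each. With Trim71 intact, the calls of Lama1 and Sox7 were lost when any of several libraries was left out. Gata4 (6.31 or more in Lin28a-intact, 5.31 or less in Lin28a-null libraries), Gata6, Pdgfra and Dab2 split without overlap. Lama1 (10.19 to 10.47 in WT-WT) and Sox7 did not. The 4 of 10 fibroblast markers in the table used summed to 6.92 to 7.18 in Lin28a-intact and 6.45 to 6.81 in Lin28a-null libraries. Of the 4, Col1a1 and Col1a2 fell with Lin28a loss in both Trim71 states, beside 22.0% of all genes in each. Thy1 and Twist1 were not called there. The mean of Thy1 was higher, at 5.32 in WT-KO beside 5.18 in WT-WT and 5.35 in KO-KO beside 5.08 in KO-WT. The part of the markers of these cell types in the Klf6 and Klf7 values was not tested.

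Klf7 (chr1:64029447-64122282, minus strand), a factor of neuronal genes and the closest relative of Klf6, had the same direction at a lower level. It ran from 6.53 to 6.70 in WT-WT, 6.38 to 6.51 in KO-WT, 6.04 to 6.31 in WT-KO and 6.07 to 6.31 in KO-KO. All Lin28a-null libraries lay below all Lin28a-intact ones. WT-KO was lower than WT-WT by 0.41 ± 0.077 and KO-KO than KO-WT by 0.24 ± 0.077; leaving out KO-KO replicate 3 (-0.19), KO-WT replicate 2 (-0.23) or KO-WT replicate 4 (-0.21) ended the call of the latter. KO-WT lay below WT-WT without overlap, by 0.14 ± 0.083, but was not called, and the difference was 0.00 with the GC and length trend removed. KO-KO minus WT-KO was 0.03 ± 0.071 over all clones, 0.22 in clone 1-4 and -0.09 in clone C1.

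Klf16 (chr10:80567124-80577321, minus strand), a Sin3-binding repressor, was the gene outside the naive group with the largest difference on Trim71 loss. It read 8.45, 8.45, 8.30 and 8.38 in WT-WT, 8.70, 8.70, 8.78 and 8.67 in KO-WT, 8.19, 8.33, 8.28, 8.20 and 8.30 in WT-KO, and 8.45, 8.38, 8.38, 8.53 and 8.46 in KO-KO. KO-WT lay above all other groups. The difference with Trim71 loss was 0.32 ± 0.058 with Lin28a intact (3 of 3 pairs) and 0.18 ± 0.049 with Lin28a null (5 of 5 pairs). The former was not called within clones 1 and 1-4 (0.24), within E3 and C1 (0.35) or when only WT-WT and KO-WT were fitted (0.34). Leaving out any of 6 libraries ended the call of the difference with Lin28a null (0.15 to 0.19). KO-KO was lower than KO-WT by 0.27 ± 0.053, and WT-KO than WT-WT by 0.14 ± 0.053 in overlapping groups, a call that was lost without any of 13 libraries. Klf16 transcripts are also GC-rich (95.8 percentile), and with the GC and length trend removed the KO-WT to WT-WT difference was 0.21.

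Klf9, Klf10 and Klf13 had the smallest differences, when each gene is taken at its largest over the 5 comparisons of genotypes. Klf9 (chr19:23141226-23168134), induced by steroid and thyroid hormones in many tissues, ran from 10.23 to 10.41 in WT-WT, 10.28 to 10.47 in KO-WT, 10.13 to 10.25 in WT-KO and 10.26 to 10.38 in KO-KO. WT-KO was lower than WT-WT by 0.15 ± 0.053, with overlap, and any of 6 left-out libraries ended that call; KO-KO exceeded WT-KO by 0.15 ± 0.049 in 5 of 5 pairs without being called. Klf10 (chr15:38291463-38300706), a TGF-beta-inducible early gene, lay between 9.13 and 9.40 in all 18 libraries, and its differences in the 5 comparisons of genotypes were 0.03 to 0.10. Klf13 (chr7:63886351-63938915), a regulator of chemokine expression in T cells, lay between 8.10 and 8.56, with differences of -0.16 to -0.02 and no call. The carriers of the let-7 seed match, Klf9 and Klf13, are among these 3, but not in each comparison taken alone. On Lin28a loss they differed by -0.15 ± 0.053 and -0.08 ± 0.070 with Trim71 intact, and by -0.06 ± 0.053 and -0.14 ± 0.070 without it. Klf16 (-0.138, beside -0.148 for Klf9) differed less in the former, and Klf2 (-0.09) less than Klf13 in the latter. The part of let-7 in these values was not tested.

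Counts over the 10 genes stand beside the shares over all genes tested, and nothing is read from them, because the genes were chosen with these comparisons known. For Trim71 loss with Lin28a intact, 4 of 10 were called, all higher, beside 11.2% of all genes (4.74% higher, 6.43% lower). With Lin28a null, 4 of 10 were called, 3 higher and 1 lower, beside 8.38% (4.26% and 4.12%). For Lin28a loss with Trim71 intact, 8 of 10 were called, 4 higher and 4 lower, beside 42.4% (20.3% and 22.0%). Without Trim71, 6 of 10 were called, 3 in each direction, beside 42.8% (20.8% and 22.0%). For loss of both, 6 of 10 were called, 3 in each direction, beside 45.6% (21.0% and 24.6%). Groups did not overlap for 5, 6, 6, 6 and 6 of the 10 genes in these comparisons, beside 28.2%, 12.6%, 40.8%, 40.7% and 44.5% of all genes. The comparisons share libraries and are not independent of each other. No call of Klf4, Klf5 or Klf6, and none of the Klf2 differences of WT-KO from WT-WT and KO-KO, was lost when a library was left out.

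**Figure D3:**
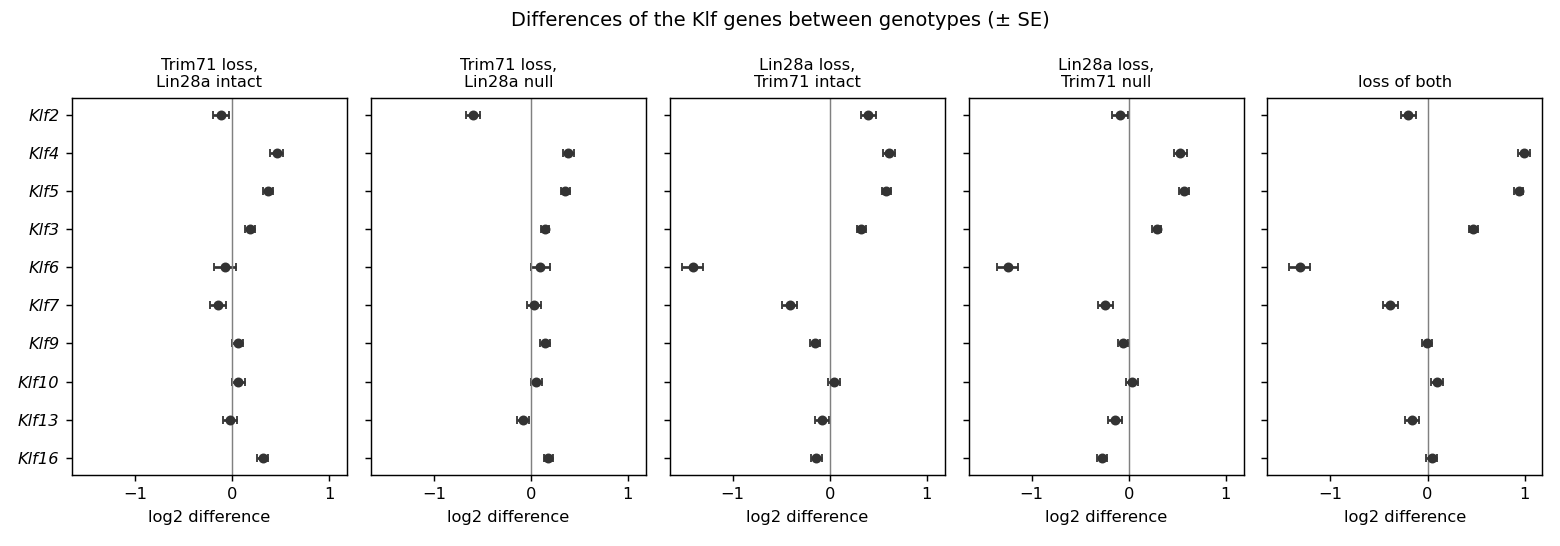
Log2 difference between genotypes (x axis) with bars of ± 1 SE for the 10 Klf genes (rows) in 5 comparisons (panels). Klf4 and Klf5 lie right of 0 in every panel, and Klf6 lies near 0 for Trim71 loss and below -1.2 in each comparison of a Lin28a-null with a Lin28a-intact genotype.

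The other 7 Klf genes of the table were not among the chosen ones. Klf1 (highest value 1.96) and Klf14 (1.08) stayed under the filter, and 5 were tested. In limma none was called for Trim71 loss in either Lin28a state (0 with Lin28a intact and 4 with Lin28a null at an unadjusted p under 0.05). Klf8, a CtBP-binding repressor like Klf3, rose with Lin28a loss from 7.18 to 7.30 in WT-WT to 7.68 to 7.75 in WT-KO (0.48 ± 0.057, limma adjusted p = 6.12e-06) and from 7.09 to 7.28 in KO-WT to 7.79 to 7.94 in KO-KO (0.68 ± 0.057, adjusted p = 1.51e-07). Klf15, a regulator of glucose and amino acid metabolism, fell by 0.45 ± 0.088 (adjusted p = 0.000669) and by 0.67 ± 0.088 (adjusted p = 1.77e-05) in the same comparisons; in clones E3 and C1 alone the former was not called (adjusted p = 0.068). Both genes changed without overlap of the groups and in 4 of 4 pairs. Klf17 lay near the filter (3.32), at 3.70 to 3.95 in KO-WT and 3.34 to 3.58 in KO-KO. It fell with Lin28a loss in Trim71-null cells by 0.39 ± 0.085 (limma adjusted p = 0.00168). Klf12 rose there by 0.29 (adjusted p = 0.0425), a call that did not last when any of 9 libraries was left out: KO-KO replicate 1, 2, 3 or 5, KO-WT replicate 1 or 3, or WT-WT replicate 1, 2 or 4 (adjusted p 0.05 to 0.208). Klf11 was not called in any comparison (adjusted p = 0.0582 or above).

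**Figure D4:**
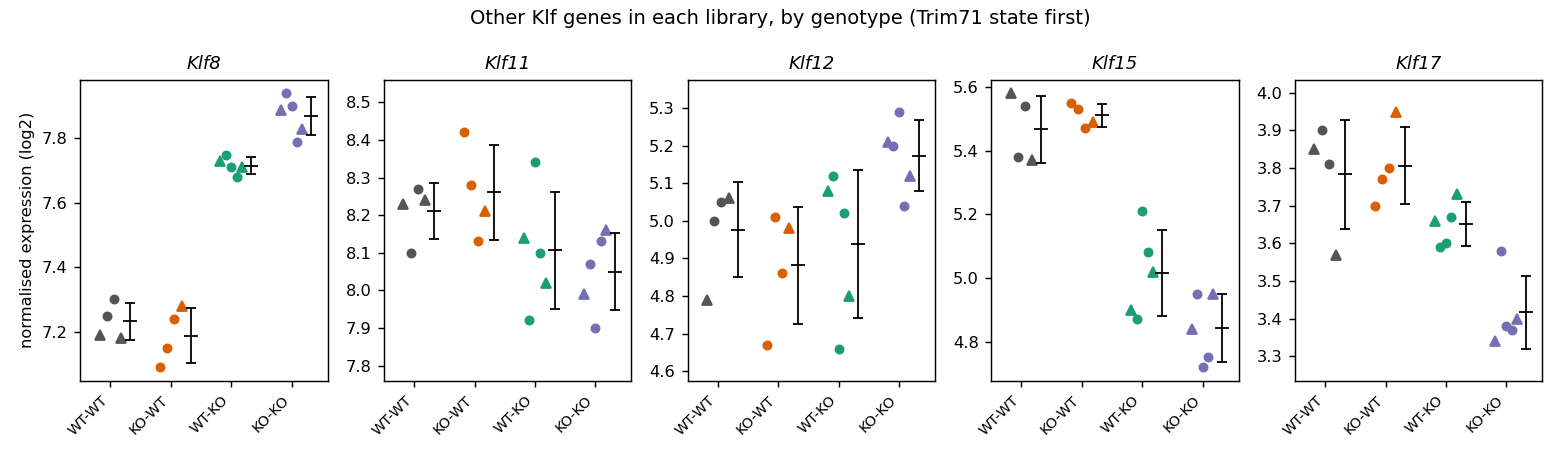
Log2 normalised expression (y axis; the scale differs between panels) of the 5 other Klf genes that were tested, in each of 18 libraries by genotype (x axis); symbols and bars as in the plot of the 10 chosen genes. Klf8 is higher and Klf15 lower in both Lin28a-null genotypes, without overlap with the Lin28a-intact ones.

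Most listed partners of the naive network rose with Lin28a loss. Of 12 listed factors, 10 rose and none fell in WT-KO against WT-WT, beside 20.3% and 22.0% of all genes (median difference 0.35, beside -0.01). In KO-KO against KO-WT, 8 rose and 1 fell, beside 20.8% and 22.0% (median 0.45, beside 0.00); the 1 was Gbx2, by 0.68. Nanog, a homeobox factor of the core network, rose from 12.16 to 12.34 in WT-WT to 12.88 to 13.25 in WT-KO, by 0.86 ± 0.077 (limma adjusted p = 3.44e-07). Prdm14 rose by 0.71 ± 0.072 (adjusted p = 1.19e-06) and Nr5a2, an orphan nuclear receptor, by 0.74 ± 0.071 (adjusted p = 7e-07). With Trim71 loss, 3 of 12 rose with Lin28a intact, beside 4.74% of all genes (median 0.10), and 2 of 12 with Lin28a null, beside 4.26% (median 0.11). Nr5a2 was higher in KO-KO than in WT-KO by 0.40 ± 0.065 (adjusted p = 0.00136, and 0.0841 in clones E3 and C1 alone; higher in 5 of 5 pairs), and it ran from 7.88 to 8.11 in WT-WT, 8.11 to 8.38 in KO-WT, 8.59 to 8.80 in WT-KO and 9.01 to 9.24 in KO-KO. In the Lin28a-intact comparison, Gbx2 rose by 0.59 (adjusted p = 0.012; 0.0508 without KO-WT replicate 3 and 0.0563 without WT-WT replicate 4) and Nr0b1 by 0.30 (adjusted p = 0.0154; 0.0708 without WT-WT replicate 4). The third was Nr5a2, by 0.28 (limma adjusted p = 0.0302). Its call was lost without KO-WT replicate 1, 2 or 4 or WT-WT replicate 1, 2 or 4 (adjusted p 0.0512 to 0.11). Gbx2, Nr0b1 and Nr5a2 were not called within clones E3 and C1 alone (0.169, 0.229 and 0.454). Nor were they when only WT-WT and KO-WT were fitted (0.0503, 0.114 and 0.219). The Nr0b1 call was also lost within clones 1 and 1-4 and with the GC and length trend removed (0.0501). Nanog, Esrrb and Prdm14 differed with Trim71 loss by -0.03, 0.07 and 0.00 with Lin28a intact and by 0.08, 0.03 and 0.15 with Lin28a null, without being called.

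The LIF and STAT3 pathway, which feeds into Klf4, was measured through 12 genes. Of these, 3 rose and 1 fell on Trim71 loss with Lin28a intact, where 11.2% of all genes were called, and 1 rose and 1 fell with Lin28a null, where 8.38% were. On Lin28a loss with Trim71 intact 1 rose and 6 fell, where 42.4% of all genes were called (median -0.14, beside -0.01 over all genes). Without Trim71, 1 rose and 5 fell, where 42.8% were called. On loss of both, 1 rose and 4 fell, where 45.6% were called. Stat3, the transcription factor of the pathway, ran from 9.39 to 9.51 in WT-WT, 9.61 to 9.66 in KO-WT, 9.56 to 9.74 in WT-KO and 9.79 to 9.95 in KO-KO, and exceeded WT-WT in KO-KO by 0.43 ± 0.049 (limma adjusted p = 3.74e-06). Pim1, a kinase gene that STAT3 induces, fell by 0.51 ± 0.054 in that comparison (limma adjusted p = 1.8e-06). With Trim71 loss Pim1 fell by 0.27 ± 0.058 with Lin28a intact (adjusted p = 0.0109) and by 0.31 ± 0.050 with Lin28a null (adjusted p = 0.00141). Pim3 rose by 0.32 ± 0.059 with Lin28a intact (adjusted p = 0.00464). In clones E3 and C1 alone, neither the Pim1 (0.161) nor the Pim3 (0.101) difference with Lin28a intact was called. Socs3, the feedback inhibitor of the pathway and also a STAT3 target, fell by 0.63 ± 0.085 in KO-KO against KO-WT (adjusted p = 2.63e-05) and by 0.27 ± 0.085 in WT-KO against WT-WT (adjusted p = 0.0169; 0.0512 to 0.0759 without WT-KO replicate 1 or WT-WT replicate 1 or 4). Socs3 rose by 0.38 ± 0.092 in KO-WT against WT-WT (limma adjusted p = 0.0189; 0.0668 without KO-WT replicate 2 and 0.0786 without WT-WT replicate 3), a call lost within either clone pair (0.323 and 0.14) and with the GC and length trend removed (0.0519). Jak2, a kinase of the pathway, fell by 0.89 ± 0.165 in WT-KO against WT-WT (limma adjusted p = 0.000463). The receptor genes Lifr and Il6st were not called in any comparison of genotypes (differences of -0.25 to 0.10).

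Related factors and regulators of Klf proteins changed in both directions. Among the Sp factors, which bind the same GC boxes, 6 of 9 were tested and none was called for Trim71 loss (2 with Lin28a intact and 1 with Lin28a null at an unadjusted p under 0.05). In WT-KO against WT-WT, 1 of the 6 rose and 1 fell, beside 20.3% and 22.0% of all genes. Sp2 rose by 0.24 ± 0.047 (limma adjusted p = 0.000643, and 0.0567 in clones E3 and C1 alone). Sp3 fell by 0.24 ± 0.082 (adjusted p = 0.0258), a call lost without WT-KO replicate 1, 3 or 5 or WT-WT replicate 3 (0.0629 to 0.144) and in clones E3 and C1 alone (0.136). Of 13 cofactor and ubiquitin ligase genes, 4 rose and 4 fell in that comparison, beside 20.3% and 22.0% of all genes. Mdm2, a ubiquitin ligase best known for p53, fell by 0.89 ± 0.062 (adjusted p = 1.77e-08), Sin3b, a corepressor scaffold, fell by 0.38 ± 0.059 (adjusted p = 9.25e-05) and Ctbp1, the corepressor that Klf3 and Klf8 bind, rose by 0.26 ± 0.045 (adjusted p = 0.000272, and 0.0689 in clones E3 and C1 alone). With Trim71 loss, 2 of 13 fell with Lin28a intact, beside 6.43% of all genes, and 1 rose and 1 fell with Lin28a null, beside 4.26% and 4.12%; Btrc, a ubiquitin ligase subunit, fell in both, by 0.22 ± 0.049 (adjusted p = 0.0137) and 0.21 ± 0.042 (adjusted p = 0.00525). The former was not called without WT-WT replicate 3 (adjusted p = 0.0584) or with the GC and length trend removed (0.207), and neither was called in clones E3 and C1 alone.

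Klf6 and Klf10 belong to genes that respond early to growth factors and TGF-beta, and other such genes changed in both directions with Lin28a loss. Of 10 tested immediate early genes, 2 rose and 5 fell in WT-KO against WT-WT, beside 20.3% and 22.0% of all genes (median -0.28). Egr1 rose by 1.41 ± 0.130 (limma adjusted p = 4.39e-07), while Fos fell by 1.01 ± 0.211 (adjusted p = 0.00121) and Dusp1, a MAP kinase phosphatase, by 0.78 ± 0.054 (adjusted p = 1.59e-08). Of 7 TGF-beta early responders, 3 rose and 1 fell, beside the same shares. Smad7, the inhibitory SMAD, rose by 0.75 ± 0.048 (limma adjusted p = 7.92e-09). The gene that fell was Bambi, a TGF-beta pseudoreceptor, by 0.24 ± 0.077 (limma adjusted p = 0.0183), and its call was lost without WT-KO replicate 1 (adjusted p = 0.0562) or WT-WT replicate 1 (0.066), within either clone pair (0.0536 and 0.317) and with the GC and length trend removed (0.151). With Trim71 loss and Lin28a intact, 4 of 10 immediate early genes and 2 of 7 TGF-beta responders rose. None fell, beside 4.74% of all genes higher and 6.43% lower. Some of these calls, that of Tgif1 among them, were lost when a library was left out. With Lin28a null, 1 of 10 and 2 of 7 rose and none fell, beside 4.26% and 4.12%. In these Lin28a-null cells, Smad7 rose with Trim71 loss by 0.25 ± 0.045 (limma adjusted p = 0.00264), Tgif1 by 0.16 ± 0.035 (adjusted p = 0.011) and Dusp1 by 0.18 (adjusted p = 0.0326). The Smad7 and Tgif1 calls held without each library but not within either clone pair alone, and that of Dusp1 was lost without KO-KO replicate 1, 3 or 4 or WT-KO replicate 1, 2, 4 or 5.

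The genes most like a Klf gene were taken by the root mean square distance between centred means of the 4 genotypes, over 12831 tested genes that are no Klf gene and whose symbol is neither Gm with digits nor ends in Rik. Klf4 and Klf5 lay 0.033 from each other on this measure. Those nearest to Klf4 were Mir124a-1hg (0.018), Bnipl (0.054) and Snai3 (0.064), and those nearest to Klf5 were Mir124a-1hg (0.032), Snai3 (0.046) and Cobl (0.054). Nearest to Klf2 were Col13a1 (0.041), Dll3 (0.049) and Matn3 (0.049). Nearest to Klf6 were F2r (0.019), Col4a5 (0.035) and Flt1 (0.036), with F2r at 8.03, 7.96, 6.65 and 6.69 in WT-WT, KO-WT, WT-KO and KO-KO. Klf4 and Klf5 shared Mir124a-1hg and Snai3, which follows from their short distance on the same means and is no separate result. Klf2 and Klf6, with other means, had other neighbours.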

How the data were processed

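Messenger RNA was sequenced in 19 libraries of mouse embryonic stem cells. The authors deposited 1 table of log2 normalised expression values; the log2 scale was read from the values, which run from -0.71 to 16.30. The submitters' processing notes name CASAVA 1.8, STAR and DESeq2, and the genome build, annotation and normalisation are not given in the sources used here. Depth is unknown. Differences between labelled days had already been removed from the deposited values, in which no gene had a day term above 1.7e-08. KO-WT replicate 5, alone on its day, differed from the average of its genotype by at most 1.5e-08 and was left out.

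Genes at or above log2 of 10 in at least 4 of 18 libraries were tested (14988 of 21685, 69.1%), all 10 Klf genes among them. limma 3.58.1 in R 4.3.3 fitted genotype and day, with 10 residual degrees of freedom. A gene was called at a Benjamini-Hochberg adjusted p under 0.05 over all genes tested. Day pairs the libraries by the labels and is the replicate block; whether same-day libraries deviate together could not be checked once day had been removed. Alternatives left out day, each library, either clone pair or incomplete days, and changed the filter, the scaling, the genotypes fitted and the GC and length trend. The Klf genes, the related lists and the rules for naming genes were chosen with earlier results of these data known. Of each related list, counts are given, and members with the largest called differences are named. A gene of the TGF-beta list is not reported here and was left out of its counts. Labels do not say whether replicates were separate cultures, so p-values measure the spread between these libraries, which may be technical.

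Transcript lengths, GC content and 3' UTRs came from GENCODE, promoters and mature microRNAs from RefSeq, both for GRCm38.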

Additional observations from a re-analysis of the deposited data

Results flagged for a closer look

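In 60 groups of libraries, taken over the 15 tested Klf genes, 2 held a library that stood apart from the rest of its genotype; chance alone gives about 1 in 20. Klf7 in WT-WT had its highest value, 6.70, in replicate 2 (labelled day 3, clone E3), where the other 3 libraries lay between 6.53 and 6.55. Klf17 in KO-KO had its highest value, 3.58, in replicate 2 (labelled day 2, clone C1), where the others lay between 3.34 and 3.40.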

How the results depend on the processing

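Of 1610 alternative values of the 60 Klf differences, 1572 lay within 1 residual SD of those reported and no called difference changed sign. Many of the 1572 could not move, so this count is no measure of robustness. Leaving out day or changing the filter leaves each difference as it is. Leaving out a library of another genotype can leave it unchanged or nearly so. The other 38 came with the clone pairs (21 for clones 1 and 1-4, 7 for E3 and C1) and the GC and length trend (10). Counts of all called genes changed with the processing, given in the order Trim71 loss with Lin28a intact (1674), Trim71 loss with Lin28a null (1256), Lin28a loss with Trim71 intact (6351), Lin28a loss without Trim71 (6412), loss of both (6834) and the interaction (3). With no replicate block, that is without day as the pairing, 4219 and 2618 genes were called for Trim71 loss and 673 for the interaction, and 4, 6, 8, 6, 7 and 1 Klf genes. Clones 1 and 1-4 alone gave 344 and 287 for Trim71 loss, 2293 for Lin28a loss without Trim71 and 0 for the interaction. Clones E3 and C1 alone gave 10, 153, 2323, 3595, 2668 and 1, and 0 Klf genes for Trim71 loss with Lin28a intact. Days with all 4 genotypes gave 474, 217 and, for the interaction, 0. Fitting the 2 genotypes compared gave 30 (0 Klf genes) and 794 for Trim71 loss, and removing the GC and length trend gave 0 for the interaction. These fits use fewer libraries or fewer degrees of freedom except the fits without day and with the trend removed. The fit without day left the differences as they were and used 14 residual degrees of freedom in place of 10. That is too many, since day had already been removed from the values. For the fit with the trend removed, the cause was not tested. Leaving out 1 library at a time gave 528 to 1978, 676 to 1392, 5384 to 6553, 5382 to 6590, 5750 to 7013 and 0 to 4 genes. For Trim71 loss with Lin28a intact, the count fell by over 1.5 times without WT-WT replicate 2 (999), 3 (602) or 4 (528), or KO-WT replicate 2 (959) or 3 (613), and with Lin28a null without KO-KO replicate 1 (688) or 2 (692), or WT-KO replicate 1 (814), 4 (676) or 5 (769). Depth is unknown, so no counting error can be given.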
